A study of Mus musculus with 5 samples.

Results

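Expression of 10 genes for small matrix and cell surface proteins was followed by Tag-seq in the mouse heart at embryonic day 10.5 (E10.5, Theiler stage 17). The genes were chosen by name, with earlier results of these data known. They comprise 5 small leucine-rich proteoglycans (*Dcn*, *Bgn*, *Lum*, *Fmod* and *Ogn*), the matrix Gla protein gene *Mgp*, and 4 glypicans (*Gpc1*, *Gpc3*, *Gpc4* and *Gpc6*). All 10 had a listed tag in at least 1 library, among 13486 genes that did. The 4 wild-type libraries came from C57BL/6 embryos and covered the atrioventricular canal (AVC), the outflow tract (OFT), the atria and the ventricles. The fifth library came from the AVC of *Twist1* null embryos of the ICR strain. Strain and genotype therefore differ together in that comparison and cannot be told apart. *Twist1* was lacking in the whole embryo, not in the cushions alone. Each library pooled tissue from at least 3 litters, there is 1 library per group, and no spread between embryos can be given. By the study's methods the pools were unequal, with fewer embryos for the null AVC than for any wild-type library.

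Small leucine-rich proteoglycans are secreted proteins that bind collagen fibrils and growth factors, and several carry chondroitin or dermatan sulphate chains. Glypicans are heparan sulphate proteoglycans held on the outer cell membrane by a lipid anchor, where they alter the reach of Wnt, Hedgehog, BMP and FGF ligands. At this stage the AVC and OFT hold endocardial cushions, matrix-rich swellings that mesenchymal cells have entered and that later form valves and septa, whereas the chamber walls are mainly myocardium lined by endocardium.

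Tag-seq reads short cDNA pieces next to sites of the restriction enzyme NlaIII, which cuts at CATG, and a tag type is 1 distinct 17-base sequence after the site. The tags on which the results rest are given first, because each reports 1 place in 1 transcript and those places did not always behave alike. CATG is in capitals, the tag itself in lower case, all are written 5′ to 3′ on the transcript strand, and positions are on GRCm38. Each of these tags matched 1 gene.
*Dcn*, 3′ UTR, chr10:97517794-97517814, plus strand: CATGacttattatgcaagctg
*Bgn*, 3′ UTR, chrX:73495143-73495163, plus strand: CATGtctgacttccagctctc
*Bgn*, coding sequence across a splice junction, chrX:73492148-73492729, plus strand: CATGaactgcattgagatggg
*Fmod*, 3′ UTR, chr1:134048115-134048135, plus strand: CATGaatggcggccaacctaa
*Mgp*, 3′ UTR, chr6:136872526-136872546, minus strand: CATGatctcctagctggctgg
*Gpc1*, 3′ UTR, 704 bases from the transcript end, chr1:92860076-92860096, plus strand: CATGctgtacagggcagccgg
*Gpc1*, 3′ UTR, 1012 bases from the end, chr1:92859768-92859788, plus strand: CATGcagaaggcctggaaaaa
*Gpc3*, 3′ UTR, 45 bases from the end, chrX:52272450-52272470, minus strand: CATGgatttctttgacaaaaa
*Gpc3*, coding sequence, 432 bases from the end, chrX:52272837-52272857, minus strand: CATGccgtccccactgaagat
*Gpc4*, 3′ UTR, 31 bases from the end, chrX:52053031-52053051, minus strand: CATGttatcttattaaaagaa

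The genes lie in a few places of the genome. *Dcn* (chr10:97479609-97518143) and *Lum* (chr10:97565128-97572703) are neighbours on the plus strand. *Gpc4* (chrX:52053021-52165252) and *Gpc3* (chrX:52272426-52613950) are neighbours on the minus strand of the X chromosome, which also carries *Bgn* (chrX:73483602-73495933). *Mgp* (chr6:136872435-136875823) and *Fmod* (chr1:134037254-134048277) each rested on 1 listed tag type. *Gpc3* had 8 listed tag types, *Bgn* 6, *Gpc1* 5, *Dcn* and *Gpc4* 4 each, *Lum* 2, and *Ogn* and *Gpc6* 1 each. *Gpc1* overlaps the oppositely oriented gene *Ankmy1*, whose tags are told apart by strand.

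Levels are tags per 1000000 (TPM) of all listed tags in a library. The files list only tag types read more than 5 times, so a gene at 0 was not listed, and 1 tag type had to reach 0.988 TPM for the AVC, 1.14 for the OFT, 1.29 for the atria, 1.42 for the ventricles and 0.462 for the null library to appear. The libraries held 4223810 to 12977237 listed tags, of which 70.7% to 74.5% matched 1 gene. Haemoglobin tags made up 21.5% of the atria library and 0.242% of the AVC library, with the other 3 between 0.307% and 4.67%. Ratios carry 95% counting intervals, which leave out the spread between embryos and any uneven amplification. A gene was called where the two-sided exact test of edgeR with a dispersion of 0.12 gave an unadjusted p under 0.05, and every such p compares libraries, not conditions. The targeted gene *Twist1*, a transcription factor of cushion mesenchyme, stood at 918 TPM for the AVC, 299 for the OFT, 63.4 for the atria and 55.9 for the ventricles. In the null library it stood at 4.55 TPM, 202-fold below the wild-type AVC (exact p = 2.61e-15).

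Transcripts of several matrix proteins were much lower in the *Twist1* null AVC. *Dcn*, *Bgn*, *Fmod* and *Mgp* all fell by more than 10-fold against the wild-type AVC, whereas *Gpc4* and *Lum* rose and the totals of *Gpc1* and *Gpc3* did not pass the test. Of the 9 genes tested 4 were called lower, against 12.7% of all 12963 genes, and 2 were called higher, against 11.9%. Their median log2 ratio was -0.54 as fitted, beside -0.16 over all genes as fitted. It was -1.96 over the 8 that had a ratio or a bound, a measure not computed over all genes. The study had already listed *Dcn*, *Bgn* and *Mgp* as down-regulated in these same libraries, and the genes were chosen with such results known. The count of lower calls is therefore no independent test of these genes as a group.

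*Dcn* encodes decorin, which binds collagen fibrils and TGF-beta. It stood at 60.4 TPM in the wild-type AVC, 41.8 for the OFT, 33.6 for the atria, 33.9 for the ventricles and 4.70 for the null AVC. The null library was thus the lowest of the 5, below both chambers. Its level was 12.9-fold lower than in the wild-type AVC (interval 9.78 to 17.1, exact p = 6.95e-06). Most of the difference lay in the 3′-most tag printed above, 53.3 TPM in the wild-type AVC and 4.01 in the null, which was 13.3-fold lower (9.91 to 18.2). The coding-sequence tag at 1097 bases held 11.7% of *Dcn* tags in the wild-type AVC (7.08 TPM) and was unlisted in the null. A coding-sequence tag at 1473 bases held 14.8% of the null tags (0.694 TPM, 9 tags) and was unlisted in every wild-type library. That level is below the 0.988 TPM a tag type needed to be listed for the wild-type AVC.

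*Bgn* encodes biglycan, a close relative of decorin. It was at 49.4 TPM for the AVC, 36.8 for the OFT, 0 for the atria, 0 for the ventricles and 4.55 for the null AVC. It was therefore listed in the AVC and OFT libraries and in neither chamber. The null level was 10.9-fold lower than the wild-type AVC (8.19 to 14.6, exact p = 2.46e-05). Both of its main tags fell. The 3′ UTR tag went from 31.1 to 3.78 TPM, 8.24-fold lower (5.99 to 11.5), and the splice-junction tag from 14.3 to 0.771 TPM, 18.6-fold lower (9.64 to 40.1).

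*Mgp* encodes matrix Gla protein, a vitamin K-dependent inhibitor of calcification. Its 1 tag stood at 12.3 TPM for the AVC, 1.90 for the OFT, 2.57 for the atria and 1.66 for the ventricles, and was not listed in the null library. The AVC interval lay above those of the other 4 libraries. With 5 tags allowed for the unlisted type, the null was at least 32.0-fold lower than the wild-type AVC (exact p = 8.40e-09). *Fmod* encodes fibromodulin, a collagen-binding keratan sulphate proteoglycan. It was at 5.60 TPM for the AVC, 0 for the OFT, 3.00 for the atria, 0 for the ventricles and 0.539 for the null AVC. The null was 10.4-fold lower (4.53 to 27.7, exact p = 5.16e-04), a ratio of 7 tags to 34.

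The decreases in *Dcn*, *Bgn*, *Fmod* and *Mgp* kept their call in each alternative setting in which the gene could be tested, 16 each for *Dcn* and *Bgn* and 15 each for *Fmod* and *Mgp*. Benjamini-Hochberg adjusted p over all genes with the edgeR exact test was 9.90e-06 for *Mgp*, 0.00111 for *Dcn*, 0.00255 for *Bgn* and 0.0154 for *Fmod*. No listed tag differing by 1 base from the *Dcn*, *Bgn* or *Mgp* tags was found among tags that match no transcript. For *Fmod* a pair of such tags was listed, at 0.988 and 1.48 TPM in the wild-type AVC, and neither was listed in the null.

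**Figure D1:**
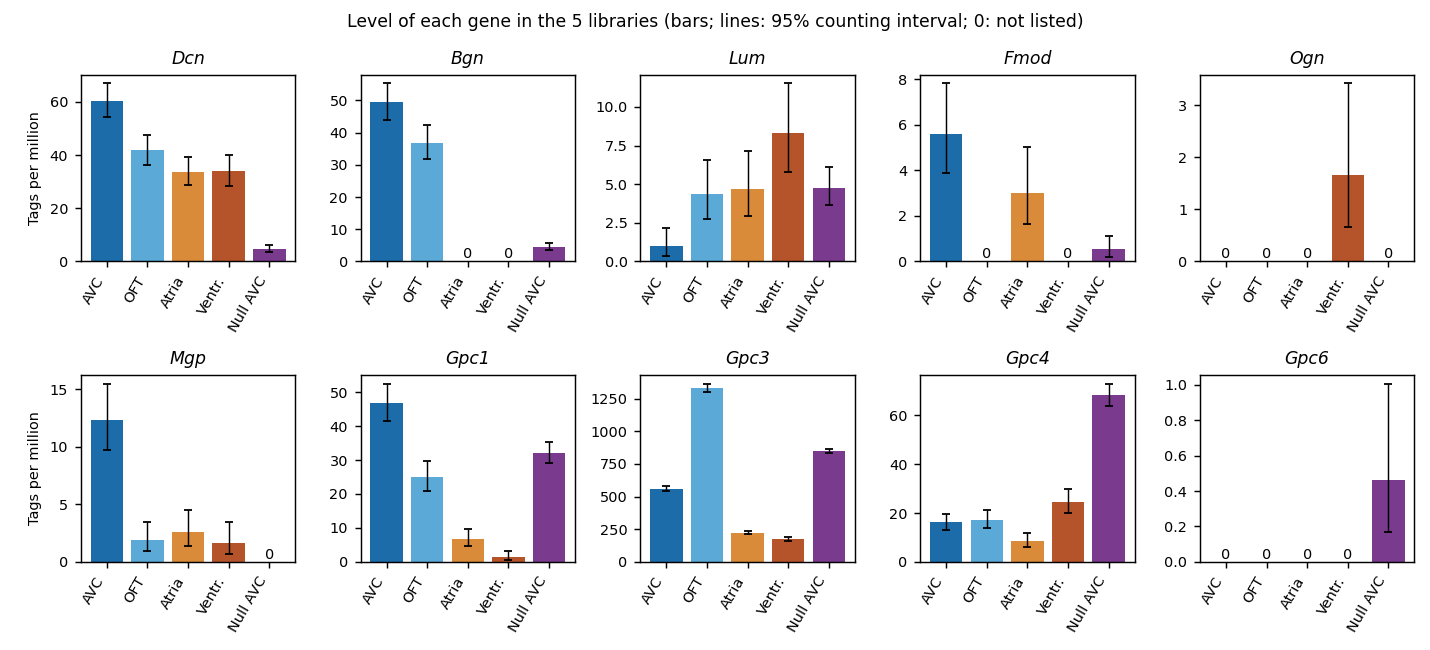
Level of each of the 10 genes in TPM (vertical axes, linear and scaled per gene) in the wild-type AVC, OFT, atria and ventricles and the *Twist1* null AVC; bars are 1 library each, lines the 95% counting interval, and 0 marks a gene that was not listed. *Dcn* is lowest in the null (4.70 TPM), *Mgp* is highest in the AVC (12.3 TPM) and *Gpc3* in the OFT (1333 TPM).

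The glypicans gave another picture. *Gpc4* was the only one whose total was called, and it rose in the null AVC. Its level was 16.1 TPM for the AVC, 17.3 for the OFT, 8.57 for the atria, 24.6 for the ventricles and 68.4 for the null. The null exceeded each of the 4 wild-type libraries, and it was 4.24-fold above the wild-type AVC (3.44 to 5.28, exact p = 0.00615). That call did not hold at a dispersion of 0.4 or after Benjamini-Hochberg adjustment in the edgeR exact test (adjusted p = 0.0604). Each *Gpc4* tag with at least 10% of its tags was higher in the null. The tag nearest the end went from 9.05 to 43.2 TPM, 4.77-fold higher (3.61 to 6.41). The tag at 84 bases went from 5.93 to 11.3 TPM, 1.91-fold higher (1.32 to 2.83). The coding-sequence tag at 575 bases went from 1.15 to 8.94 TPM, 7.76-fold higher (3.65 to 19.7).

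*Gpc3*, the glypican mutated in an X-linked overgrowth syndrome with heart defects, had the most tags of the 10 genes in every library. It was at 561 TPM for the AVC, 1333 for the OFT, 223 for the atria, 175 for the ventricles and 851 for the null AVC. The null total was 1.52-fold above the wild-type AVC (1.46 to 1.58) and did not pass the test (exact p = 0.404). Its tags, however, moved unequally.
The 3′-most tag stood at 497 TPM in the wild-type AVC and 493 in the null, a ratio of 0.993 (0.951 to 1.04). The coding-sequence tag 432 bases from the end stood at 56.3 TPM in the wild-type AVC and 303 in the null, 5.39-fold higher (4.82 to 6.04). Thus the whole rise in the *Gpc3* total came from tags upstream of the last site.

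The split between the sites was alike in the wild-type libraries and differed in the null. The 3′-most tag held 88.6% of *Gpc3* tags in the AVC (exact interval 87.5 to 89.7), 87.4% in the OFT (86.6 to 88.2), 89.2% in the atria (87.2 to 91.0) and 88.7% in the ventricles (86.2 to 90.9). In the null it held 58.0% (57.04 to 58.9). The 4 wild-type intervals overlap one another and the null interval lies below all of them. The tag at 432 bases correspondingly held 10.04% to 11.9% of *Gpc3* tags in the wild-type libraries and 35.6% in the null. A pair of smaller tags, chosen after their values were seen, rose as well. The tag at 72 bases went from 1.98 to 21.4 TPM and the tag at 81 bases, unlisted in all 4 wild-type libraries, reached 29.2 TPM.

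*Gpc1*, a glypican of many tissues including muscle and nerve, changed its main tag. Its total was 46.7 TPM for the AVC, 25.1 for the OFT, 6.86 for the atria, 1.42 for the ventricles and 32.1 for the null AVC. The null total was 1.46-fold lower (1.25 to 1.70), which did not pass the test (exact p = 0.456). The tag at 704 bases from the end went from 38.8 TPM to 12.9, 3.02-fold lower (2.47 to 3.70). The tag at 1012 bases went from 1.81 TPM to 16.5, 9.11-fold higher (4.99 to 18.5). The tag at 578 bases, with 15.9% of *Gpc1* tags in the OFT, went from 3.46 to 2.08 TPM, 1.66-fold lower (0.893 to 3.05). The tag at 704 bases held 83.1% of *Gpc1* tags in the wild-type AVC, 84.1% in the OFT, 100% of the 32 tags in the atria and 100% of the 6 in the ventricles, against 40.1% in the null. The *Gpc1* site nearest the transcript end gave no listed tag in any library.

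Shifts of this kind were not confined to these genes. Among 6081 genes with at least 100 tags in both AVC libraries, the tag most abundant in the wild-type AVC lost a median of 3.86 percentage points of its gene's tags in the null. *Gpc3* lost 30.6 points, and 11.002% of those genes lost as much or more. *Gpc1* lost 43.0 points, and 4.47% lost as much or more. The tag of each gene was chosen by its wild-type AVC count, a choice that favours a drop in the null. The reverse choice was not made. The deeper null library also listed types from 0.462 TPM, against 0.988 TPM in the wild-type AVC, so it could list more minor types. The median drop is therefore no measure of a change in site use. Over all genes the 3′-most site held 70.5% of the assigned tags in the wild-type AVC and 67.5% in the null. The wild-type libraries were not uniform in this share either, with 80.3% (atria), 74.8% (ventricles) and 69.1% (OFT). The part of library preparation, strain and genotype in these splits was not tested.

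**Figure D2:**
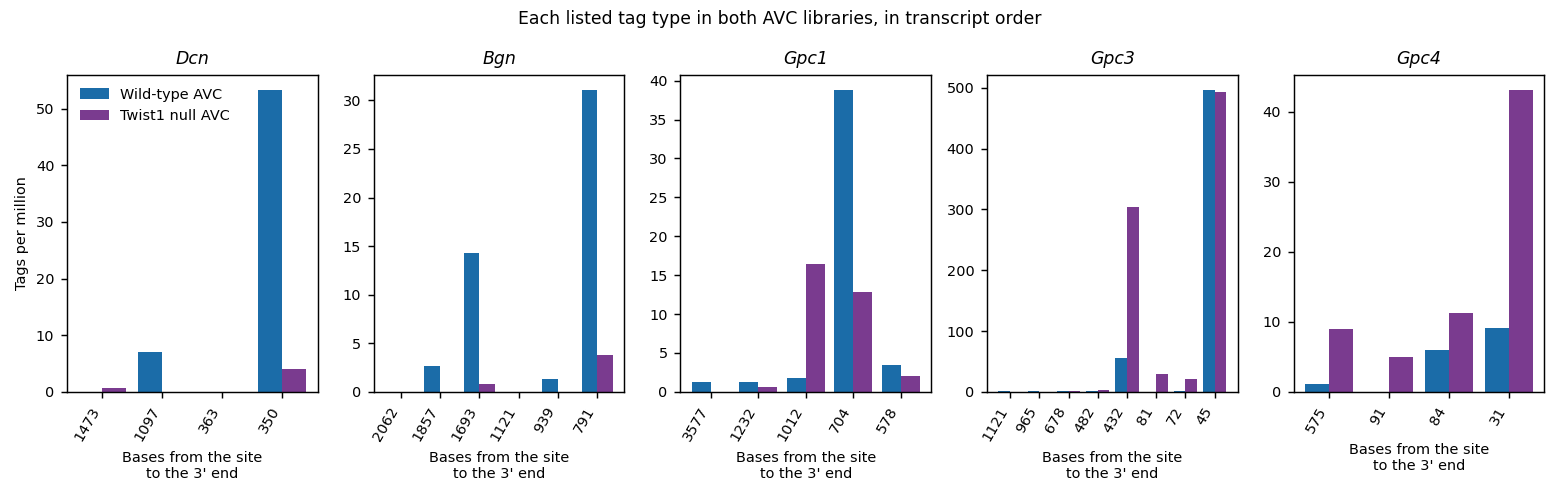
TPM (vertical axes, linear) of each listed tag type of *Dcn*, *Bgn*, *Gpc1*, *Gpc3* and *Gpc4* in the wild-type AVC and the *Twist1* null AVC, ordered by the distance in bases from the NlaIII site to the 3′ end of the transcript (horizontal axes, not to scale); each bar is 1 library. *Gpc3* tags at 45 bases are level (497 and 493 TPM) while those at 432 bases rise from 56.3 to 303 TPM, and the highest *Gpc1* bar moves from 704 to 1012 bases.

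*Lum* encodes lumican, a keratan sulphate proteoglycan that orders collagen fibrils. It ran against *Dcn*, its neighbour on chromosome 10. Its level was 0.988 TPM for the AVC, 4.37 for the OFT, 4.71 for the atria, 8.29 for the ventricles and 4.78 for the null AVC. All its tags came from the site 47 bases from the end, except in the OFT. There 34.8% came from a 3′ UTR tag at 537 bases (1.52 TPM, 8 tags). The wild-type AVC was lowest, and the counting intervals of the ventricles, null, atria and OFT overlapped from each to the next. The null was 4.84-fold above the wild-type AVC (2.10 to 13.7, exact p = 0.0215), a ratio resting on 62 tags against 6. That call was lost at a dispersion of 0.4, after thinning to the smallest library and after adjustment (edgeR exact test, adjusted p = 0.125).

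*Ogn*, which encodes osteoglycin, was listed in the ventricles alone at 1.66 TPM, from 7 tags. *Gpc6* was listed in the null alone at 0.462 TPM, from 6 tags, and this was not called (exact p = 0.169). Its tag begins 10 bases from the transcript end and continues into the poly(A) tail. Both genes rest on 1 tag type close to the listing limit in 1 library.

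**Figure D3:**
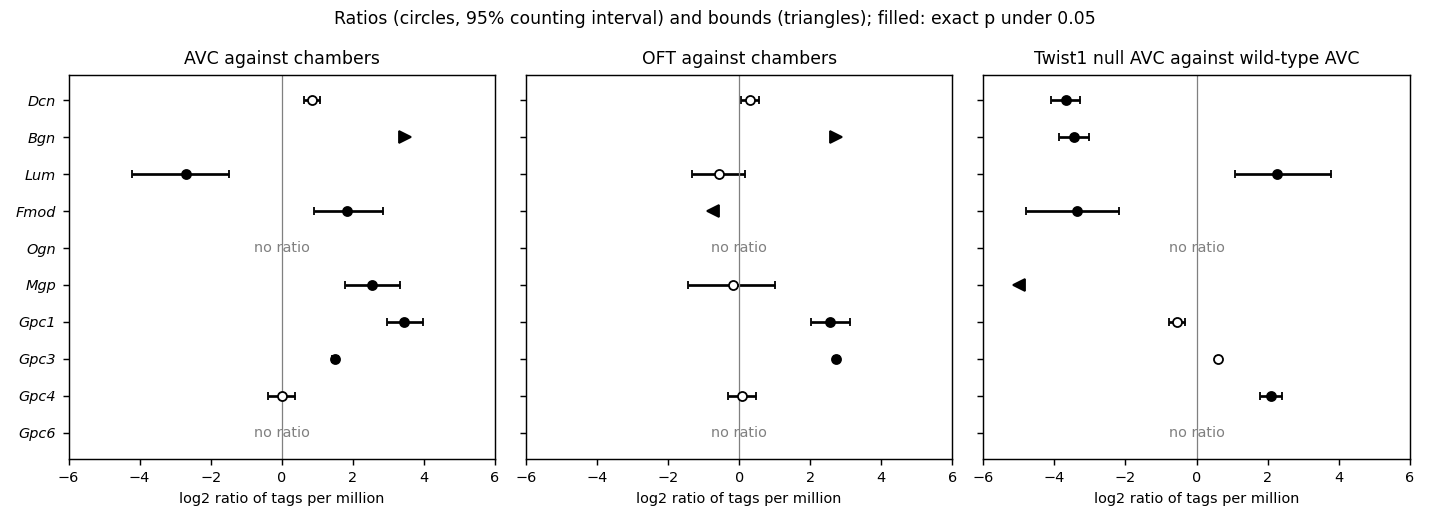
Log2 ratio of TPM (horizontal axes) for the 10 genes in the AVC and the OFT against the summed atria and ventricles, and in the *Twist1* null AVC against the wild-type AVC. Circles are ratios with 95% counting intervals, triangles are bounds for a gene unlisted on 1 side, and filled marks have an exact p under 0.05; in the third panel *Dcn*, *Bgn*, *Fmod* and *Mgp* lie left of -3 and *Gpc4* and *Lum* right of 2.

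The comparison of the wild-type AVC with the chambers asks which of these genes marked the cushion-bearing region. *Bgn*, *Gpc1*, *Mgp*, *Fmod* and *Gpc3* were higher in the AVC and *Lum* was lower, whereas *Dcn* and *Gpc4* were not called. The 5 higher calls among 9 genes stand beside 43.4% of all 12503 genes called higher, and the 1 lower call beside 8.12%. The median log2 ratio as fitted was 1.49 for the genes and 1.23 over all genes, so a rise of this kind was common in this comparison. It was 1.66 over the 8 with a ratio or bound, a measure not computed over all genes.

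*Bgn* was higher in the AVC than in the chambers by at least 10.97-fold (exact p = 6.02e-13). *Gpc1* was 10.9-fold higher (7.78 to 15.8, exact p = 2.71e-05). *Mgp* was 5.78-fold higher (3.46 to 10.1, exact p = 0.00256). These lay above the median of all genes on the log2 scale, at 3.45 for *Gpc1* and 2.53 for *Mgp*. *Bgn* and *Gpc1* kept the call in all the settings in which they could be tested, 18 and 17, and *Mgp* lost it with TMM normalization, with DESeq2 size factors and at a dispersion of 0.4. Without the atria library *Gpc1* had a log2 ratio of 5.02, and without the ventricles 2.76. It was 2.50 with TMM normalization and 2.41 with 5 tags for each missing tag type.

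*Gpc3* was 2.80-fold higher in the AVC (2.64 to 2.97, exact p = 0.0429) and *Fmod* 3.55-fold higher (1.86 to 7.17, exact p = 0.0368). Neither call was firm. With TMM normalization the log2 ratio of *Gpc3* was 0.53 (exact p = 0.460) and with DESeq2 size factors 0.50 (exact p = 0.491). *Bgn* and *Gpc1* were then the 2 genes called higher, and *Lum* and *Ogn* the 2 called lower. Over all settings *Gpc3* kept its call in 11 of 18 settings and *Fmod* in 8 of 17, and without the ventricles library the log2 ratios were 1.33 for *Gpc3* (exact p = 0.0686) and 0.89 for *Fmod* (exact p = 0.323). *Lum* was 6.49-fold lower (2.81 to 18.4, exact p = 0.00572). *Dcn* was 1.79-fold higher (1.53 to 2.09, exact p = 0.253), a log2 ratio of 0.84 that lies below the median of all genes and turned to -0.11 with TMM normalization. *Gpc4* had a ratio of 0.996 (0.762 to 1.30), although the atria and ventricles that make up its reference differed, at 8.57 and 24.6 TPM.

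In the OFT, which also holds cushions, *Bgn*, *Gpc1* and *Gpc3* were higher than in the chambers and *Fmod* was lower. The 3 higher calls among 9 genes stand beside 40.6% of 12451 genes, and the 1 lower call beside 8.88%. *Gpc3* was 6.66-fold higher (6.32 to 7.02, exact p = 3.52e-04). *Gpc1* was 5.86-fold higher (4.06 to 8.65, exact p = 0.00160), and its log2 ratio was 4.12 without the atria, 1.87 without the ventricles and 1.69 with TMM normalization, which also brought *Gpc3* from 2.74 to 1.88. *Bgn* was at least 6.55-fold higher (exact p = 1.13e-11). *Fmod* was at least 1.66-fold lower (exact p = 0.00780), a call lost when 5 tags were put in for the unlisted type. *Mgp* was not called there, at 0.888 of the chamber level (0.369 to 2.01, exact p = 0.910). The AVC and OFT comparisons share the chamber libraries as reference. The median log2 ratio as fitted was 0.09 for the genes and 1.07 over all genes. It was 0.20 over the 8 with a ratio or bound, a measure not computed over all genes.

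Set directly against each other, the OFT and the AVC differed in *Mgp*, *Fmod* and *Lum*. 2 of 8 genes were lower in the OFT, beside 7.35% of 12541 genes, and 1 was higher, beside 5.22%. *Mgp* was 6.50-fold lower in the OFT (3.35 to 14.1, exact p = 0.00268) and *Fmod* at least 5.90-fold lower (exact p = 3.39e-05). *Lum* was 4.42-fold higher (1.75 to 13.3, exact p = 0.0272). The *Lum* call was lost in 5 of 14 settings and the *Mgp* call in 2 of 15, among them Benjamini-Hochberg adjustment of the edgeR exact test (adjusted p = 0.274 and 0.0700), while *Fmod* kept its call in all 14. *Gpc3* was 2.38-fold higher in the OFT (2.28 to 2.48), which did not pass the test (exact p = 0.0865). *Dcn* and *Bgn* differed by 1.45-fold and 1.34-fold, with exact p of 0.468 and 0.568. The median log2 ratio was -0.48 for the genes and -0.10 for all genes.

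Between the chambers, *Gpc1* and *Fmod* were lower in the ventricles and *Ogn* was higher. These are 2 lower calls among 8 genes beside 9.03% of 10705 genes, and 1 higher call beside 11.1%. *Gpc1* was 4.83-fold lower in the ventricles (1.99 to 14.1, exact p = 0.0180), from 6 tags against 32. *Fmod* was at least 2.53-fold lower (exact p = 0.00386) and *Ogn* at least 1.55-fold higher (exact p = 0.0391). None of these 3 calls held after Benjamini-Hochberg adjustment, and those of *Fmod* and *Ogn* were lost with 5 tags in place of the unlisted type. *Gpc4* was 2.87-fold higher in the ventricles (1.98 to 4.25, exact p = 0.0548). *Dcn* was level at 33.6 and 33.9 TPM, a ratio of 1.01 (0.797 to 1.27). The median log2 ratio was -0.17 for the genes and 0.31 for all genes.

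The scale of each library moved these counts. With TMM normalization the median of all genes shifted by -0.95 in the AVC and -0.85 in the OFT comparison with the chambers, by 0.24 in the null comparison, by 0.08 between OFT and AVC and by -0.32 between ventricles and atria. The share of all called genes that were higher went from 84.2% to 59.4% in the AVC comparison, from 82.1% to 59.7% in the OFT comparison and from 48.3% to 61.4% in the null comparison. With totals of all sequenced tags it was 67.2% in the null comparison and went from 41.5% to 57.03% between OFT and AVC.

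**Figure D4:**
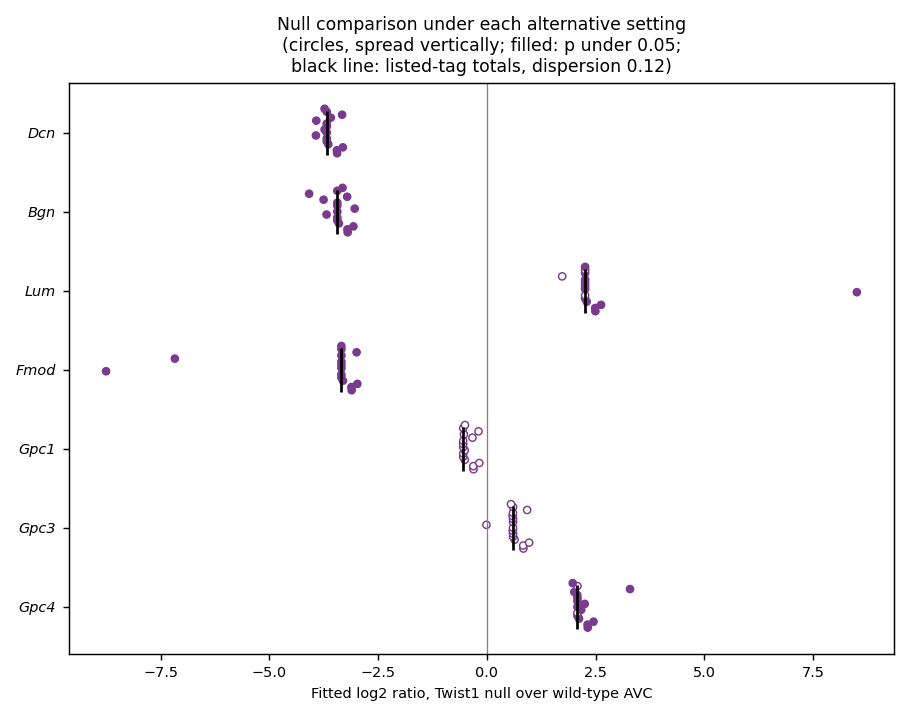
Fitted log2 ratio of the *Twist1* null over the wild-type AVC (horizontal axis) for the 7 genes listed in both libraries. Circles are alternative settings, spread vertically to be told apart and filled where p is under 0.05, and the black line is the value with listed-tag totals and a dispersion of 0.12; *Dcn* stays between -3.93 and -3.31 and *Gpc4* between 1.97 and 3.29, and the outlying *Lum* and *Fmod* circles are settings that leave them unlisted in 1 library, where a fitted ratio is no estimate.

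Markers of several cell types differed between the same libraries. A list of 9 cushion mesenchyme genes summed to 1536 TPM for the AVC, 1250 for the OFT, 86.4 for the atria, 81.4 for the ventricles and 753 for the null AVC. All 9 were higher in the AVC than in the chambers, beside 43.4% of all genes. Among them were the homeobox genes *Msx2* (78.8 TPM in the AVC) and *Prrx1* (29.8 TPM), neither of which was listed in the chambers. In the null 3 of the 9 were lower and none was higher, beside 12.7% and 11.9% of all genes. *Sox9*, a regulator of cushion and cartilage precursors, went from 514 to 114 TPM (4.53-fold lower, exact p = 0.00366). *Postn*, a matricellular protein gene, went from 145 to 29.0 TPM (4.99-fold lower, exact p = 0.00225), and *Snai2*, a transcription factor of mesenchymal transition, from 13.3 to 3.24 TPM (4.12-fold lower, exact p = 0.0108). In bulk tissue fewer cells of a type and less RNA per cell cannot be told apart.

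Lists for other cell types differed too. A list of 6 erythroid genes summed to 2422 TPM for the AVC, 3079 for the OFT, 215353 for the atria, 46710 for the ventricles and 27350 for the null, and 5 smooth muscle genes summed to 497, 1270, 285, 398 and 1028 TPM in the same order. The smooth muscle sum was higher in the null mainly through *Acta2*, which went from 120 to 716 TPM (5.98-fold higher, exact p = 7.05e-04). *Tagln* stood at 172 and 113 TPM (exact p = 0.404) and *Myh11* went from 0.988 TPM to unlisted (exact p = 0.0254, and 0.351 with 5 tags for each missing tag type), with a median log2 ratio of -0.07 over the 5 genes. The sums of 8 cardiomyocyte genes were 20533, 22552, 7721, 22282 and 18742 TPM. By gene, 5 of the 8 were higher in the AVC than in the chambers and 1 was lower, beside 43.4% and 8.12% of all genes. Their median log2 ratio was 2.85, against 1.23 over all genes. *Myh6*, a myosin heavy chain gene, was 15.8-fold higher (exact p = 8.27e-07), *Nppa*, a natriuretic peptide gene, 13.3-fold higher (exact p = 3.42e-06) and *Tnnt2*, a troponin gene, 12.5-fold higher (exact p = 4.74e-06). In the null *Myh6* was the 1 cardiomyocyte gene called, at 290 TPM against 2696 TPM (9.31-fold lower, exact p = 3.73e-05). The sums of 8 endothelial and endocardial genes were 501, 539, 316, 386 and 533 TPM. By gene, 3 of the 8 were higher in the AVC than in the chambers and 1 was lower, beside 43.4% and 8.12% of all genes. Their median log2 ratio was 0.57, below the 1.23 over all genes. In the null *Emcn* was the 1 endothelial gene called, from unlisted to 2.70 TPM (exact p = 8.65e-04). That call was lost with 5 tags for each missing tag type (exact p = 0.940). A list of 7 epicardial genes summed to 271, 90.9, 323, 279 and 181 TPM. No defining gene of the cardiomyocyte list was unlisted in any library, while *Myh11* was listed in the AVC alone, *Emcn* was unlisted in the AVC and *Wt1* in the atria. The part of cell makeup in the proteoglycan values was not tested.

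Since *Bgn*, *Gpc3* and *Gpc4* are X-linked, 5 sex-linked genes were read as well. They summed to 222 TPM for the AVC, 189 for the OFT, 15.6 for the atria, 33.6 for the ventricles and 93.9 for the null AVC. In the null 1 of the 5 was lower and none was higher, beside 12.7% and 11.9% of all genes. Against the chambers 4 were higher in the AVC, beside 43.4% of all genes. *Xist*, the RNA of the inactive X chromosome, stood at 93.3 TPM in the wild-type AVC and 29.3 TPM in the null (3.19-fold lower, exact p = 0.0243), and *Ddx3y*, a Y-linked gene, at 70.8 and 26.9 TPM (exact p = 0.0588). Both were listed in all 5 libraries, and the part of the sex of the pooled embryos in the X-linked values was not tested.

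Genes that act with the proteoglycans were taken from lists by known function. Because many were unlisted in a chamber, their folds against the chambers are given with 5 tags for each missing tag type, a choice made after seeing the data and called the fill here. The counts of genes per list take an unlisted gene as 0. Over all genes, 43.4% were called higher and 8.12% lower in the AVC than in the chambers, with a median log2 ratio of 1.23. In the null comparison 11.9% were called higher and 12.7% lower, with a median of -0.16. The glycosaminoglycan chains are built on the core proteins by enzymes of the secretory pathway. Among 20 genes of heparan sulphate synthesis and editing, 10 of 18 tested were higher in the AVC than in the chambers and none was lower, with a median log2 ratio of 1.56. *Ndst1*, an N-deacetylase and sulphotransferase, was at 34.6 TPM for the AVC, 28.1 for the OFT, 0 for the atria and 1.42 for the ventricles (exact p = 1.20e-08), or 27.6-fold above the chambers with 5 tags for each missing tag type. *Extl3*, a chain-starting transferase, was at 80.7 TPM in the AVC and 3.43 and 4.26 TPM in atria and ventricles (8.04-fold, exact p = 1.38e-04 with that fill). *Hs3st3b1*, a 3-O-sulphotransferase gene, was at 10.4 TPM in the AVC and unlisted in both chambers (4.58-fold, exact p = 0.00839 with the fill).

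In the null 4 of 18 genes of that list were lower and 1 was higher, beside 12.7% and 11.9% of all genes. Their median log2 ratio was -0.91, against -0.16 over all genes. *Hs3st1*, another 3-O-sulphotransferase gene, went from 25.7 to 3.78 TPM (6.80-fold lower, exact p = 5.82e-04). *Ndst1* went from 34.6 to 8.78 TPM (3.93-fold lower, exact p = 0.00954). *Extl1*, the 1 higher gene, was unlisted in the wild-type AVC and at 1.08 TPM in the null (exact p = 0.0113), a call lost with the fill (exact p = 0.593).

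Among 22 genes of the linker and of chondroitin or dermatan sulphate synthesis, 9 of 18 tested were higher in the AVC than in the chambers and 1 was lower, with a median log2 ratio of 1.41. The share called higher and the median lie near the 43.4% and 1.23 of all genes. *Chst15*, a sulphotransferase gene, was at 7.24 TPM in the AVC and *Fam20b*, a xylose kinase gene, at 6.58 TPM, both unlisted in the chambers (exact p = 1.48e-06 and 2.54e-06), and neither call held with the fill (exact p = 0.195 and 0.265). *Chst11*, a chondroitin 4-O-sulphotransferase gene, was 8.19-fold higher with the fill (8.05 TPM in ventricles, unlisted in atria, 45.3 TPM in the AVC, exact p = 1.56e-04). In the null 5 of 19 were lower and 2 higher, beside 12.7% and 11.9% of all genes, with a median of -0.63. *Chst11* went from 45.3 to 11.3 TPM (3.996-fold lower, exact p = 0.00861). *Ust*, a uronyl 2-sulphotransferase gene, went from 1.98 TPM to unlisted (exact p = 0.00149, and 0.0379 with the fill), and *B4galt7*, which adds the first linker galactose, from unlisted to 6.01 TPM (exact p = 8.45e-06, and 0.00308 with the fill).

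Among 6 genes of core protein processing and release, *Bmp1* and *Furin* were the 2 that could be tested in the AVC. Both were higher than in the chambers, beside 43.4% of all genes. *Bmp1*, a protease that removes the propeptides of biglycan and of procollagens, was at 57.8 TPM for the AVC, 63.2 for the OFT, 5.14 for the atria and 2.13 for the ventricles (8.14-fold, exact p = 1.53e-04 with the fill). It went to 14.6 TPM in the null (3.95-fold lower, exact p = 0.00872). *Furin*, a convertase that cleaves glypican cores, was at 35.4 TPM in the AVC and 1.29 and 0 TPM in the atria and ventricles (5.27-fold, exact p = 0.00218 with the fill). *Notum*, whose product acts on secreted Wnt proteins, was listed in the null alone at 1.85 TPM (exact p = 0.00111), a call lost with the fill (exact p = 0.311). In the null 1 of 3 genes tested was higher and 1 was lower, beside 11.9% and 12.7% of all genes.

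Of 8 genes of the vitamin K cycle and mineral binding, 2 of 5 tested were higher in the AVC than in the chambers and 1 was lower. Over all genes 43.4% were higher and 8.12% lower. *Gas6*, a vitamin K-dependent ligand of TAM receptors, was at 66.8 TPM for the AVC, 36.8 for the OFT, 3.00 for the atria and 0 for the ventricles (20.4-fold, exact p = 4.21e-07 with the fill). It fell alongside *Mgp* in the null, to 11.02 TPM (6.06-fold lower, exact p = 7.77e-04). *Ggcx*, the carboxylase that both proteins need, was 4.48-fold higher in the AVC than in the chambers with the fill (exact p = 0.00819), and stood at 13.2 TPM in the wild-type AVC and 20.5 in the null. *Spp1*, the osteopontin gene, was unlisted in the wild-type AVC and at 1.54 TPM in the null (exact p = 0.00278, and 0.488 with the fill).

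Of 13 other small leucine-rich protein genes most were not listed in any library. In the null 2 of 4 tested were higher and 1 was lower, beside 11.9% and 12.7% of all genes. *Tsku*, a secreted modulator of BMP and Wnt signals, went from 1.65 to 10.2 TPM (6.18-fold higher, exact p = 0.00322, and 0.0159 with the fill). *Nyx*, the nyctalopin gene, went from unlisted to 2.00 TPM (exact p = 8.36e-04) and *Ecm2* from 1.48 TPM to unlisted (exact p = 0.00545), calls lost with the fill (exact p = 0.268 and 0.0971). *Ecm2* was the 1 of 2 tested that was higher in the AVC than in the chambers (exact p = 0.0113, and 0.758 with the fill). Of 6 other glypican and syndecan genes, 3 of 5 tested were higher in the AVC than in the chambers, beside 43.4% of all genes. *Sdc3* was at 39.2 TPM in the AVC against 3.43 and 3.08 in the atria and ventricles (8.90-fold, exact p = 1.09e-04 with the fill) and *Gpc2* was 3.57-fold higher with it (exact p = 0.0210). *Sdc4* was at 3.62 TPM and unlisted in the chambers (exact p = 1.15e-04), a call lost with the fill (exact p = 0.462). *Sdc4* was the 1 gene of that list called in the null, at 21.4 TPM (5.92-fold higher, exact p = 0.00165). The share of all genes called in each direction is the one given for each comparison above.

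For *Dcn*, *Bgn*, *Mgp*, *Gpc3* and *Gpc4* the genes with the most similar pattern over the 5 libraries were sought among 9088 genes, by the root mean square difference of centred log2(TPM + 1) values. *Tipin*, *Mlf1* and *Syngr2* were closest to *Dcn* (0.20, 0.20 and 0.24). *Rfwd3*, *Cmip* and *Pigh* were closest to *Bgn* (0.28, 0.28 and 0.31), and like it were unlisted in both chambers. *Pf4* and *Tbc1d4* were among the 3 closest to *Mgp* (0.46 and 0.50). *Efnb2*, *Prr3* and *Nudt10* were closest to *Gpc3* (0.08, 0.18 and 0.22). *Gmpr2*, *Pcgf6* and *Cc2d2a* were closest to *Gpc4* (0.09, 0.11 and 0.12). The likeness is over 5 libraries and describes a pattern of levels only.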

How the data were processed

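The deposited files are counts of reads per tag type, without normalization, from which the authors had dropped types with 5 or fewer tags. The study's methods name ELAND for processing the sequences and DiscoverySpace for mapping tags to genes, and that mapping was not used here. Tags were matched with Python 3.11.15 (pandas 2.3.3, scipy 1.17.1) in sense to 315529 distinct virtual NlaIII tags of 33363 RefSeq-linked GENCODE transcripts on GRCm38. The submitters' notes name the mm9 build, but the files hold no coordinates. Tags of 1 gene were kept and summed, and levels are per 1000000 listed tags. Libraries were compared with the edgeR 4.0.16 exactTest function under R 4.3.3 (dispersion 0.12, as in the study's methods). DESeq2 1.42.0 size factors were an alternative. Intervals are exact Poisson or binomial, and a bound puts 5 tags for each missing tag type. No genome sequence was used, and no protein sequence is shown.

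The genes and lists were chosen with earlier results of these data known. The text names the 10 genes, *Twist1*, the 3 genes of smallest exact p among those called per list in the AVC and in the null comparison, the 3 most similar genes for 5 of the genes (mean of at least 5 TPM), and tag types with at least 10% of their gene's tags in a library. 1 gene that this rule names is not reported here. Scripts were tested on simulated data. No replicate spread exists, so p-values describe libraries.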

Additional observations from a re-analysis of the deposited data

Results flagged for a closer look

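Antisense tags, which the comparisons do not use, were found for *Gpc3* at 49.2 TPM in the *Twist1* null AVC against 27.3 TPM in the wild-type AVC, and at 48.2, 78.9 and 84.5 TPM in the OFT, atria and ventricles. The chambers, where sense *Gpc3* tags were lowest, thus had the highest antisense values. Antisense *Gpc4* tags were at 16.03 TPM in the null against 5.43 in the wild-type AVC, 1.90 for the OFT, 12.0 for the atria and 4.74 for the ventricles. A tag that differs from the 3′-most *Gpc3* tag by C12A, with positions counted from 1 at the first base after CATG, was read at 8.86 TPM (115 tags) in the null and was not listed in the other 4 libraries. These values were picked out because they lie outside the main measurement and above the wild-type AVC. Antisense tags of other genes went the other way. Those of *Dcn* stood at 7.08 TPM and those of *Bgn* at 5.43 TPM in the wild-type AVC, and neither was listed in the null.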

How the results depend on the processing

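No paired analysis was possible because each group has 1 library. Over 19 alternative settings, 593 of 674 recomputed values kept their side of the threshold and direction, 42 lost a call, 14 gained one and 25 turned direction, none of the last among called genes; the 6 alternatives for levels were chosen after seeing the data. At a dispersion of 0.4 the number of genes called fell to 2 in each chamber comparison and to 1 between OFT and AVC and between ventricles and atria. With at least 50 tags per gene it was 1 and 0 in those last comparisons, with Benjamini-Hochberg adjustment 1 and 0, and with 5 tags for missing types 1 between ventricles and atria. Leaving out the atria or ventricles gave 7 and 4 calls in the AVC comparison, and 4 each in the OFT comparison. Log2 ratios of uncalled genes that turned were as follows. *Dcn* in the AVC comparison was -0.11 (TMM) and -0.15 (DESeq2), in the OFT comparison -0.55 and -0.57, and between ventricles and atria -0.31, -0.30, -0.13 (all-tag totals), -0.27 (without haemoglobin) and -0.19 (without tags starting with T). *Gpc4* in the AVC comparison was 0.11 (all-tag totals), 0.018 (thinned), 5.99 (without T) and 0.91 (without ventricles, against -0.61 without atria), in the OFT comparison -0.76 (TMM), -0.78 (DESeq2), -0.11 (without haemoglobin), -0.26 (3′-most site) and -0.51 (without atria, against 1.01 without ventricles), and between OFT and AVC -5.73 (without T). In the OFT comparison *Lum* was 6.31 (without T), and *Mgp* 0.30 (all-tag totals), 0.085 (thinned) and 0.19 (without atria, against -0.43 without ventricles). In the null comparison *Gpc3* was -0.01 (3′-most site) and *Gpc6* -0.81 (5 tags for missing types). The cause was not tested, except that leaving out T-tags leaves *Gpc4* and *Lum* unlisted on 1 side. Those *Gpc4* and *Lum* values without T were called in their new direction, and are counted as turned, not as gained. Differences below the listing limit of 5 tags per type were not detectable at this depth.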
